A study of Mus musculus with 2 samples.

Results

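The cells described here are the 320 cells highest in a set of mitotic transcripts among 1599 single cells of a Matrigel culture of mouse small-intestinal organoids. Organoids are closed epithelial structures grown from intestinal crypts. Each cell was scored by the sum, in counts scaled to 1000000 per cell (CPM), of 9 genes: Mki67, Top2a, Ccnb1, Cenpa, Cdc20, Ube2c, Birc5, Tpx2 and Cenpf. The 20% of cells with the highest score were taken and are called mitotic-high cells below; the other 1279 Matrigel cells are the cells they are set against. Of 1615 cells assigned to Matrigel, 16 had more than 30% of their counts from mitochondrial genes and were left out. The whole table held 2090 cells, of which 336 were from collagen cultures and 139 were named as doublets.

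Crypts came from the proximal small intestine of wild-type C57BL/6 mice, and both cultures were analysed at day 4. The Matrigel culture received ENR medium, which holds EGF at 50 ng/mL, Noggin at 100 ng/mL and R-spondin1 at 400 ng/mL, and its organoids were released with Cell Recovery Solution. The type I collagen culture received ENRW medium, which holds the same factors with 100 ng/mL Wnt3a, 10 mM nicotinamide and 1% BSA, and was released with collagenase at 0.5 mg/mL. Matrix, medium and release therefore differ together and cannot be told apart. Both suspensions were dissociated with TrypLE, labelled through EpCAM with a hashtag (an oligonucleotide tag that names the culture), pooled and sequenced as 1 cDNA library. With 1 suspension per culture there was no replicate to test against, so no p-value is given. Cells are not replicates, the sources used here give no number of mice, and the 95% intervals below cover counting error only.

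G2 and mitosis are the closing stages of the cell cycle, after DNA has been copied in S phase. Cyclin B with the kinase Cdk1 drives entry into mitosis, spindle motors and kinetochores attach and move the chromosomes, and the anaphase promoting complex with its activator Cdc20 marks cyclins and securin for destruction so that the chromosomes can part. Transcripts of many of these genes build up after S phase and decline after division. In the crypt, stem cells and their transit-amplifying daughters divide, while Paneth, goblet, enteroendocrine cells and enterocytes have left the cycle.

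Because the members were chosen on these 9 genes, the levels of those genes describe the choice. The score had a median of 211 CPM over all Matrigel cells, 964 CPM in the mitotic-high cells (quartiles 801 and 1174, highest 2905) and 136 CPM in the other cells (quartiles 54.9 and 317). There was no gap at the threshold. The lowest 3 mitotic-high cells scored 676.305, 678.803 and 678.941 CPM, and the highest 3 other cells scored 676.264, 675.918 and 675.14 CPM. Within 10% of the threshold lay 45 mitotic-high cells and 55 others, so the set is a range of a continuous score.

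**Figure D1:**
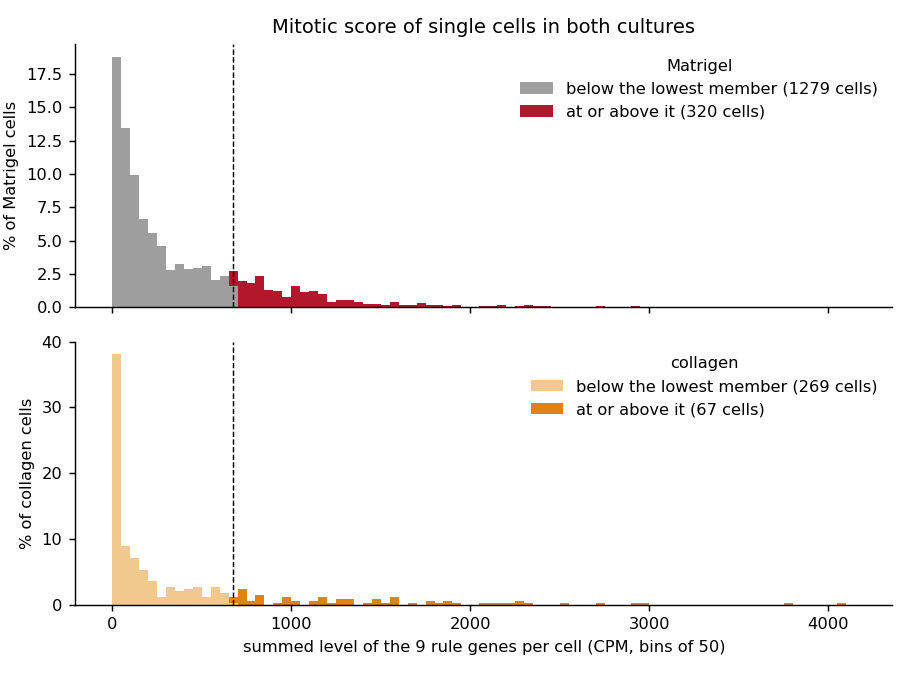
Summed level of the 9 scored genes per cell (horizontal axis, CPM in bins of 50) against the share of cells (vertical axis, %), for Matrigel cells (upper panel) and collagen cells (lower panel). The dashed line marks the lowest mitotic-high cell at 676.305 CPM, and the distribution runs across it without a gap in the Matrigel cells.

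The scored genes did not weigh equally. Cenpa, which encodes the histone H3 variant of centromeres, made up 18% of the mitotic-high cells' summed score, Birc5 (survivin, a chromosomal passenger protein) 17.1%, and Ube2c (the ubiquitin-conjugating enzyme that works with the anaphase promoting complex) 15.9%. The proliferation antigen Mki67 made up 12.4%, the DNA topoisomerase Top2a 10.4%, Cdc20 8.41%, Ccnb1 6.59%, the spindle assembly factor Tpx2 5.68% and the kinetochore protein Cenpf 5.46%. Counts of all 9 genes were present in 127 of the 320 cells and of at least 7 genes in 289.

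Across single mitotic-high cells, Cdc20 had quartiles of 31.4, 75.6 and 133 CPM, against a median of 0 in the other cells. Summed over cells, its level was 86.2 CPM (95% interval 83.9 to 88.7) against 12.1 CPM (11.6 to 12.5), a log2 ratio of 2.74 on the CPM scale with 1 added, which is the scale of every log2 ratio below. Ccnb1 stood at 70.2 against 14.2 CPM and Cenpa at 182 against 39.7 CPM. Tpx2 had the highest ratio of the 9 (61.3 against 6.51 CPM, log2 3.05) and Top2a the lowest (123 against 33.8 CPM, log2 1.84). No Top2a count was present in 114 of the 320 cells, which had a median of 155564 counts per cell against 196092 in those with Top2a. Their median summed level of a list of S phase genes was also lower, at 2063 against 3030 CPM. The part of depth in this was not tested.

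Depth differed little between the groups. The median number of counts per cell was 182791 in the mitotic-high cells (range 30219 to 460178) and 178645 in the others (30984 to 533149), with medians of 9559 and 9434 detected genes and mitochondrial shares of 4.54% and 4.66%. With Matrigel cells cut into 5 equal groups by total counts, mitotic-high cells made up, from the shallowest group to the deepest, 20.3%, 20.3%, 16.6%, 18.4% and 24.5%. To set the share of cells with a count apart from depth, cells were thinned to 91971 counts each, which left out 32 mitotic-high and 129 other cells for too few counts. At that depth Cdc20 was counted in 91.3% of mitotic-high cells, in 33.6% of other cells and in 27.4% of the cells highest in enterocyte genes that were not mitotic-high. Ccnb1 was counted in 91.3%, 36.3% and 21.0% of the same groups, and Cenpa in 95.5%, 51.0% and 37.1%. The enterocyte-high cells compared here and below exclude mitotic-high cells, so they were in part chosen for low scores and their shares are no independent background level; their unthinned median was 191742 counts.

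Outside the 9 scored genes, 100 of 8257 genes were at least 2-fold higher in the mitotic-high cells (1.21%) and 56 were at least 2-fold lower (0.678%). The score ranked the same cells, so these counts describe the members and are no test. Of the 100 higher genes, 62 were in one of the mitosis lists described next. Over the 5 lists together (mitotic entry, checkpoint and anaphase promoting complex, kinetochore, spindle, cytokinesis), 71 of 122 measured genes were at least 2-fold higher and 0 were lower, with a median log2 ratio of 1.20, beside 0.02 over all genes tested.

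**Figure D2:**
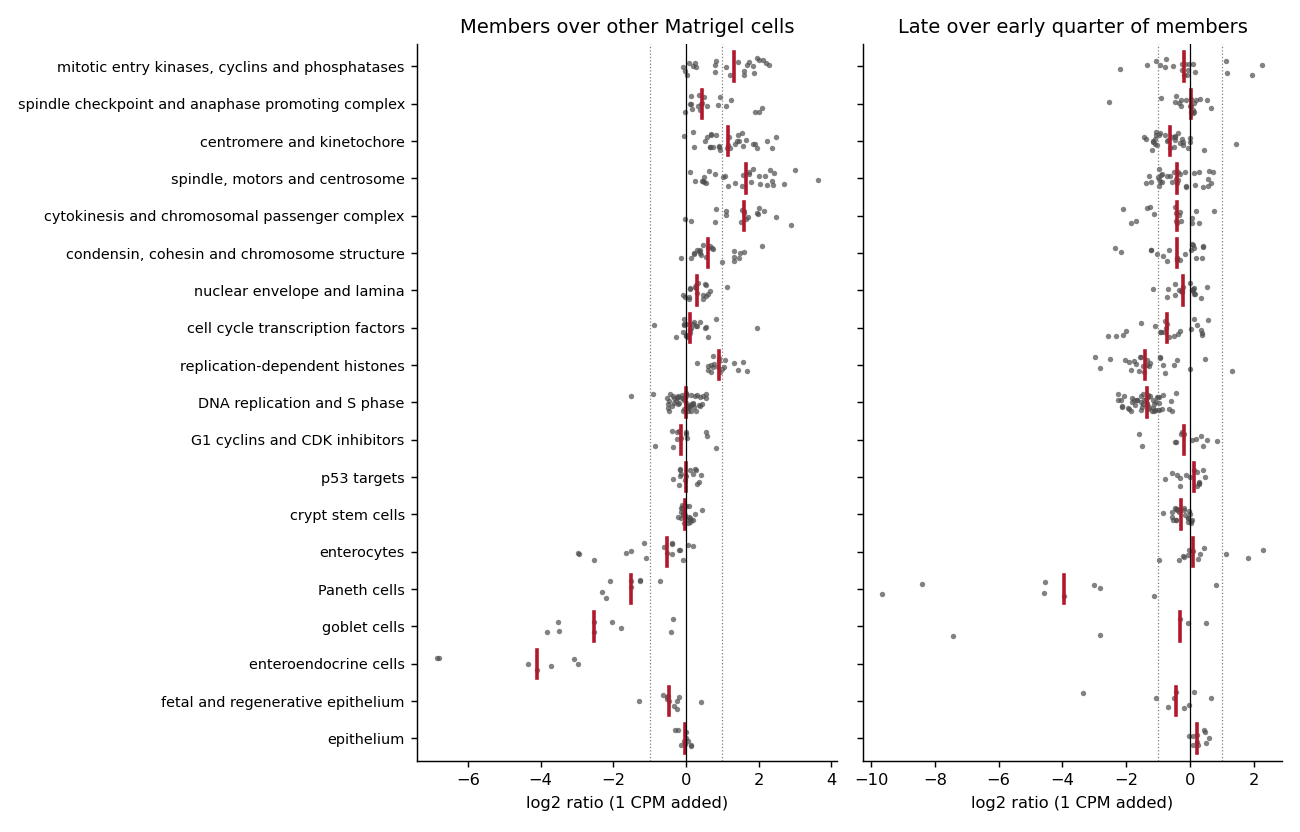
Log2 ratio of CPM (1 added) for each measured gene (points) of the lists (rows), with the list median as a red bar and dotted lines at 2-fold. Left, mitotic-high over other Matrigel cells: the spindle, cytokinesis and mitotic entry lists lie to the right and the S phase list is centred near 0. Right, the 80 latest over the 80 earliest mitotic-high cells, without the 12 genes that ordered them: the S phase, histone and Paneth lists lie to the left.

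Of the mitotic entry kinases, cyclins and phosphatases, 14 of 24 were higher and 0 lower (median 1.33). Plk1, the polo-like kinase that acts at entry and at exit, had quartiles of 8.72, 31.0 and 65.7 CPM over mitotic-high cells and a median of 0 over the others. Summed, it stood at 47.3 CPM (45.5 to 49.1) against 9.43 CPM (9.03 to 9.84), log2 2.21. Most mitotic-high cells held some Plk1: after thinning it was counted in 80.2% of them, against 37.0% of other cells and 21.0% of enterocyte-high cells. The centrosome kinase Aurka stood at 30.1 against 5.34 CPM (log2 2.29), Nek2, which separates centrosomes, at 44.9 against 9.66 CPM (2.11), and the chromosomal passenger kinase Aurkb at 30.6 against 7.66 CPM (1.87). The phosphatase Cdc25c, which activates Cdk1, was low in both groups, at 8.93 against 1.58 CPM (1.94).

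The cyclins and their kinase differed from one another. Ccna2, the cyclin of S phase and G2, stood at 108 against 25.9 CPM (log2 2.02). Ccnb2, a partner of Cdk1, had quartiles of 36.6, 119 and 185 CPM over mitotic-high cells and a median of 14.2 CPM over the others, and summed to 117 CPM (114 to 120) against 49.6 CPM (log2 1.22). Cdk1 itself was spread widely, with quartiles of 4.43, 26.1 and 121 CPM and a median of 14.6 CPM in the others; its sums were 81.1 CPM (78.8 to 83.4) and 37.4 CPM (log2 1.09), and the groups overlapped broadly. Wee1, the kinase that holds Cdk1 back, stood at 18.2 against 19.2 CPM, and Cdc25a, a phosphatase that releases it, at 62.1 against 63.6 CPM. Cdkn3, a phosphatase of Cdk1, stood at 62.9 against 20 CPM (1.60) and Pbk, a mitotic kinase, at 86.7 against 25.3 CPM (1.73). Cks2, a small Cdk1 partner, stood at 307 against 112 CPM (1.45); 85.4% of its values are not whole numbers, and the sources do not say how reads shared with similar copies were split.

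Of the spindle, motor and centrosome genes, 21 of 30 measured (of 33) were higher and 0 lower (median 1.64). Hmmr, a microtubule-binding protein of the spindle, had quartiles of 0, 29.2 and 68.0 CPM over mitotic-high cells and was absent from the median other cell. It summed to 47.3 CPM (45.5 to 49.1) against 2.87 CPM (2.66 to 3.10), a log2 ratio of 3.64, and after thinning was counted in 72.6% of mitotic-high cells, 9.48% of other cells and 8.06% of enterocyte-high cells. No other gene outside the score that reached 20 CPM had a higher ratio, with mitochondrial, ribosomal protein, predicted, clone and pseudogene names left out of the ranking. Nusap1, which binds spindle microtubules, stood at 31.0 against 3.00 CPM (3.00) and the mitotic spindle protein Ckap2l at 21.3 against 2.40 CPM (2.71). Of the kinesin motors, Kif22 stood at 25.5 against 3.93 CPM (2.43), Kif11, which pushes the poles apart, at 33.5 against 5.72 CPM (2.36), and Kif4 at 25.9 against 4.42 CPM (2.31). The tubulin Tubb4b stood at 589 against 277 CPM (1.09), with 82.1% of its values not whole.

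Of the cytokinesis list, 14 of 18 were higher and 0 lower (median 1.60). Kif20a, a motor of the central spindle, had quartiles of 5.15, 21.5 and 44.3 CPM over mitotic-high cells and summed to 31.7 against 3.37 CPM (log2 2.90). Racgap1, which with Ect2 directs the contractile ring, had quartiles of 42.8, 74.2 and 122 CPM and summed to 90.4 against 15.5 CPM (2.47). It was counted after thinning in 95.5% of mitotic-high cells, 41.2% of other cells and 22.6% of enterocyte-high cells, so few mitotic-high cells lacked it. Prc1, which bundles the midzone microtubules, stood at 46.6 against 9.68 CPM (2.16). Of the passenger complex, Cdca8 (borealin) stood at 150 CPM (147 to 153) against 37.7 CPM (1.97) and Incenp at 51.8 against 17.4 CPM (1.52).

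Of the centromere and kinetochore genes, 17 of 31 were higher and 0 lower (median 1.16). The motor Cenpe, which carries chromosomes to the spindle equator, stood at 61.4 against 10.1 CPM (log2 2.49), Nuf2 of the Ndc80 complex at 28.3 against 4.72 CPM (2.36), Knl1, the platform of the checkpoint proteins, at 31.9 against 6.03 CPM (2.23), and Spc25 at 24.0 against 5.38 CPM (1.97). Not all kinetochore genes followed: Zwint stood at 44.4 against 46.1 CPM (-0.05). The spindle checkpoint and anaphase promoting complex list was split in the same way, with 5 of 19 measured (of 20) higher and 0 lower (median 0.45). Its 5 higher genes were the checkpoint kinases Bub1b (28.4 against 5.83 CPM, 2.11), Ttk (19.7 against 4.12 CPM, 2.02) and Bub1 (21.5 against 4.98 CPM, 1.91), with Mad2l1 (102 against 42.8 CPM, 1.24) and the ubiquitin-conjugating enzyme Ube2s (124 against 57.5 CPM, 1.10; 97.8% of values not whole). The core subunits of the complex stood within 2-fold, such as Cdc27 at 28.5 against 18.8 CPM (0.57) and Anapc13 at 166 against 168 CPM. Pttg1, which encodes securin, stood at 41.7 against 31.9 CPM (0.38).

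Of the condensin, cohesin and chromatin genes, 7 of 23 measured (of 24) were higher and 0 lower (median 0.61). The condensin subunits Ncapg (29.6 against 6.18 CPM, log2 2.09), Ncapd2 (50.1 against 15.8 CPM, 1.61) and Smc4 (240 against 95.2 CPM, 1.32) were among them, as was the chromatin protein Hmgb2 (1225 against 493 CPM, 1.31). The cohesin acetyltransferase Esco2, which is in no list, stood at 59.3 against 12.6 CPM (2.15). Of the nuclear envelope list, Nup37 was the 1 of 19 that was higher (55.8 against 25.1 CPM, 1.12), and the median was 0.29. Of 51 histone genes, 19 were measured and 7 were higher (median 0.90), among them the linker histone H1f5 (18.5 against 5.05 CPM, 1.69). The histone values are uncertain, since the genes are near-identical copies: 100% of the values above 0 of H2ac24 (283 against 65.6 CPM) are not whole, and its low values are absent from the table.

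Of the transcription factors of the cycle, 1 of 23 measured (of 24) was higher and 0 lower (median 0.12). That was Foxm1, an activator of G2/M genes, at 9.44 CPM (8.67 to 10.3) against 1.71 CPM (log2 1.95), with 57.3% of its values not whole. Mybl2, the B-Myb factor that acts with it, stood at 10.9 against 9.40 CPM (0.19), and E2f1, an activator of S phase genes, at 14.7 against 27.9 CPM (-0.88). The ribosome biogenesis list had 0 of 21 genes past 2-fold in either direction (median 0.10). Also within 2-fold were all 13 measured (of 15) G1 cyclins and CDK inhibitors (median -0.14), among them Ccnd1 at 321 against 354 CPM and Cdkn1a at 63.8 against 82.0 CPM, and all 15 measured (of 18) p53 targets (median 0.01).

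Many promoters of mitotic genes hold the cell cycle homology region, a short element bound by the DREAM and MuvB complexes, often with CCAAT boxes, which are bound by NF-Y. The letters TTTGAA and TTCGAA were searched on both strands, and CCAAT likewise, in the RefSeq promoter windows of build GRCm38.p6, which run from 250 bases before each gene's start to 50 after it (32851 windows). Of the 100 higher genes 78 matched, with 87 windows. The homology region letters were in 72.4% of those windows, against 19.2% of all windows, 14.3% of the windows of all genes tested and 26.7% of the windows of lower genes. Among mitosis-list genes they were in 74.5% of windows of genes at least 2-fold higher and in 27.7% of windows of the rest. For the S phase list the share was 14.3%, and for the stem list 0 of 23 windows held them. CCAAT was in 67.8% of the windows of higher genes and in 37.4% of all windows, and both elements stood together in 55.2% and 7.52%. A match describes the letters and is neither a binding site nor a cause.

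The 130 bases before the start are printed below for 6 genes, 5′ to 3′ on the gene's own strand, with both kinds of match in capitals on either strand (TTTGAA, its complement read as TTCAAA, or the palindrome TTCGAA for the homology region, and CCAAT or its complement ATTGG for the box). They were chosen to show genes with both elements (Cdc20, Cdk1, Ube2c and Kif22), a scored gene with CCAAT boxes alone in this stretch (Ccnb1) and an S phase gene (Pcna). Their positions are chr4:118437344-118437473 (minus strand), chr10:69352913-69353042 (minus), chr2:164769799-164769928 (plus), chr7:127042421-127042550 (minus), chr13:100786487-100786616 (minus) and chr2:132253181-132253310 (minus).
Cdc20: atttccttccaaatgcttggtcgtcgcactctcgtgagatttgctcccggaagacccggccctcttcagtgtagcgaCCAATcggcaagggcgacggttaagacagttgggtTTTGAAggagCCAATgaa
Cdk1: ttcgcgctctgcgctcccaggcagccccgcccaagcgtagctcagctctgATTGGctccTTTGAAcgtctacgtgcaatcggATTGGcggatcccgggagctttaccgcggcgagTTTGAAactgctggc
Ube2c: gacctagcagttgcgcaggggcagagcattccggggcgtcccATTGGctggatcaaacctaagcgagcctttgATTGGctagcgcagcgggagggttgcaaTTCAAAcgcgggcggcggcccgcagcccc
Kif22: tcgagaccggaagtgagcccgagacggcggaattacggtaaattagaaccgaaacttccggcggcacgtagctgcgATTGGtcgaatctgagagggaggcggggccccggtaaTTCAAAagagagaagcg
Ccnb1: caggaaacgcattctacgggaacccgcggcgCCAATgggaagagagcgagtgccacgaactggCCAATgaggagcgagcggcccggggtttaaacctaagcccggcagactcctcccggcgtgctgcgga
Pcna: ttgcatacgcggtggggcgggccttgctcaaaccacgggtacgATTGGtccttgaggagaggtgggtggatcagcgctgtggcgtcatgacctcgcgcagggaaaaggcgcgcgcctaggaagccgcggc
The Cdk1 stretch holds 2 homology region matches and 2 CCAAT boxes, the Cdc20 and Ube2c stretches 1 and 2, and the Kif22 stretch 1 and 1. The Pcna stretch holds 1 CCAAT box and no homology region match.

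The S phase list was not lower in the mitotic-high cells as a whole. Of its 49 genes, 0 were at least 2-fold higher and 1 was lower, with a median of -0.00019 and 24 genes above 0. The 1 lower gene was Ung, the uracil-DNA glycosylase, at 25.5 CPM (24.2 to 26.9) against 75.3 CPM (74.1 to 76.4), log2 -1.52. Genes of replication licensing stood within 2-fold and below the other cells, such as the origin loading factor Cdc6 (11 against 21.4 CPM, -0.91) and the helicase subunits Mcm3 (70.7 against 102 CPM, -0.52) and Mcm5 (125 against 157 CPM, -0.33). Genes of nucleotide supply stood within 2-fold and above them, such as Tk1 (94.8 against 64.8 CPM, 0.54), Tyms (114 against 78.2 CPM, 0.54) and Rrm2 (70.6 against 53.9 CPM, 0.38). Pcna, the replication clamp, stood at 313 against 310 CPM (0.01).

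The cells most like the mitotic-high ones in cycling were those highest in S phase genes. The 20% of Matrigel cells with the highest summed S phase level numbered 320, and 61 of them were mitotic-high (19.1%, exact 95% interval 14.9 to 23.8), near the 20% that an even spread gives. With the highest-scoring 10% or 30% of cells taken instead, 9.06% and 35% of the S-high cells were among them, again near the size of the cut. The share depended on the scored genes: without Cenpa in the score it was 26.9%, above the interval given. With Matrigel cells cut into 5 equal groups by S phase level, from the lowest to the highest, 12.2%, 32.5%, 21.9%, 14.4% and 19.1% of cells were mitotic-high. Mitotic-high cells thus occurred at every S phase level, most often in the group next to the lowest.

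**Figure D3:**
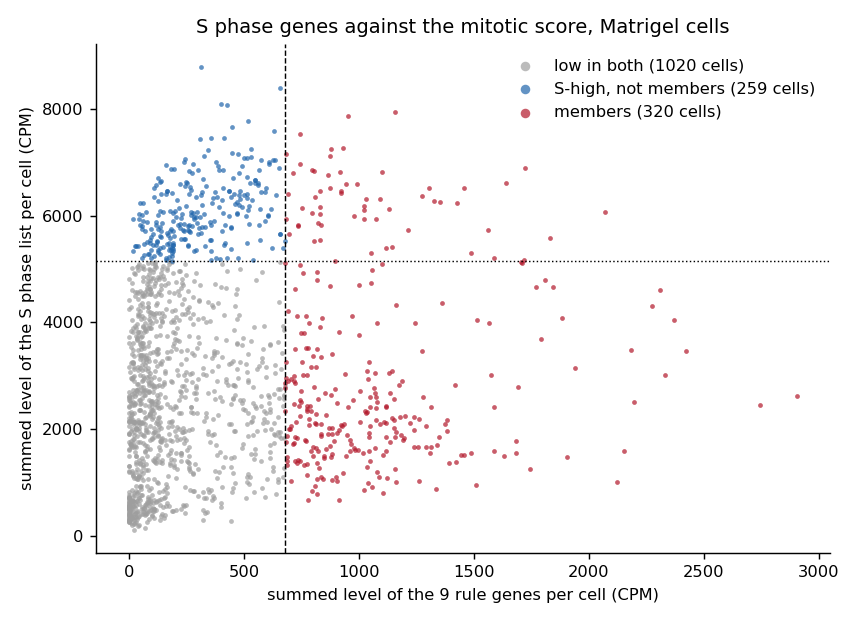
Summed S phase level (vertical axis, CPM) against summed level of the 9 scored genes (horizontal axis, CPM) for each Matrigel cell. Mitotic-high cells are red, S-high cells that are not mitotic-high are blue and cells low in both are grey; the red cells spread over the whole height, and 61 of them lie above the dotted S-high line.

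Against the 259 S-high cells that were not mitotic-high, the difference in mitotic genes narrowed. Of the 122 mitosis-list genes, 29 were at least 2-fold higher in the mitotic-high cells and 0 lower (median log2 0.48), with 11 of 30 spindle genes but 4 of 31 kinetochore genes. The share over all genes was not worked out for this comparison, so these counts have no background beside them. In the S phase list 19 of 49 were lower and 0 higher (median -0.89); the S-high cells were chosen on this list, so that count, Pcna included, describes the choice. Both other groups hold only cells below the score threshold, so lower levels of mitotic genes in them in part describe the choice. Some genes were higher in the mitotic-high cells than in both. Hmmr stood at 47.3 CPM against 1.28 in S-high cells and 3.37 in cells low in both. Kif20a stood at 31.7 against 4.16 and 3.12 CPM, and Ccnb2 at 117 against 24.4 and 57.6 CPM. Other genes were shared with S-high cells: Cdk1 stood at 81.1 against 90.1 and 20.9 CPM, Esco2 at 59.3 against 43.5 and 2.92 CPM, and Aurkb at 30.6 against 22.7 and 2.92 CPM. Top2a, itself a scored gene, stood at 123 against 101 and 12.7 CPM. Mybl2 was lower than in S-high cells (10.9 against 25.2 CPM), as were Pcna (313 against 566 CPM) and E2f1 (14.7 against 59.8 CPM).

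**Figure D4:**
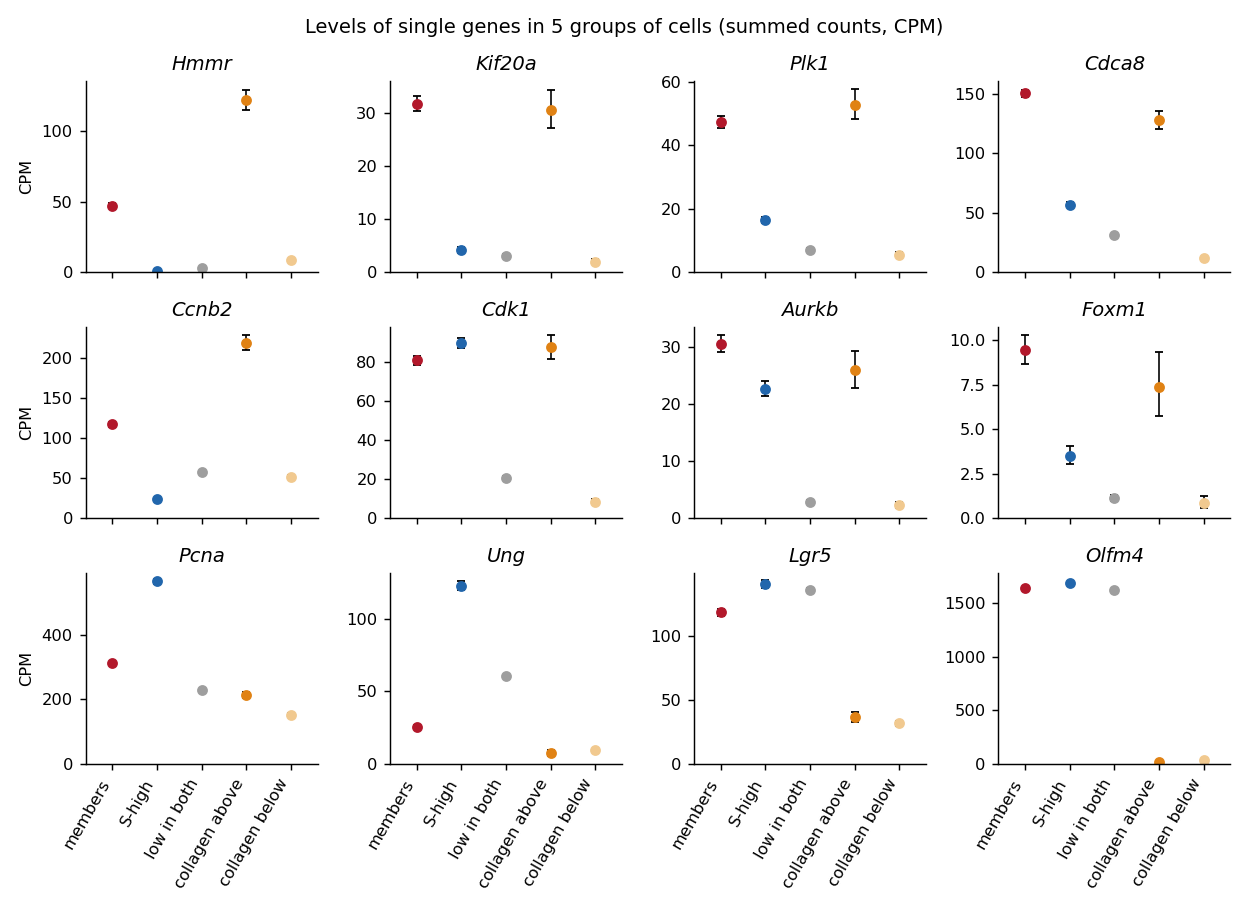
Level in CPM (vertical axes, one panel per gene) with exact 95% Poisson intervals in mitotic-high cells, S-high cells that are not mitotic-high, Matrigel cells low in both, and collagen cells above and below the threshold. Hmmr, Kif20a, Plk1, Cdca8 and Ccnb2 are higher in the mitotic-high cells than in both other Matrigel groups, and Pcna and Ung are highest in S-high cells.

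The mitotic-high cells were ordered by the share of 6 genes of late G2 and mitosis (Cdc20, Ccnb1, Plk1, Aurka, Cenpa and Ube2c) in their sum with 6 genes that rise earlier (Top2a, Mki67, Ccna2, Cdk1, Hmgb2 and Smc4). The 80 cells with the highest share (median 34.3%) are called late cells here and were set against the 80 with the lowest (13.5%), the early cells. The sums are of CPM without weights, and Hmgb2 was by far the most abundant of the 12 genes. The order therefore rests in large part on Hmgb2. Those 12 genes are left out of the counts. Of 8438 other genes, 40 were at least 2-fold higher in the late cells (0.474%) and 245 lower (2.9%). The late cells had fewer counts (median 156782 against 190193) and detected genes (9155.5 against 9692.5). The part of depth in these counts was not tested. Lineage genes differed too. Of 9 measured Paneth genes, 8 were lower in late cells and 0 higher (median log2 -3.95). Of 13 measured enterocyte genes, 3 were higher and 0 lower (0.11). The highest Paneth sum was 102217 CPM among early and 1110 CPM among late cells, with medians of 18.5 and 19.1 CPM.

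The S phase list differed widely: 39 of 49 genes were lower in the late cells and 0 higher, with a median log2 ratio of -1.34, beside 0.01 over all genes. Cdk1 and Top2a, which helped to order the cells, were also high in S-high cells that were not mitotic-high. The order thus in part chose early cells for S phase transcripts, and the ratios of this list in part describe that choice. Pcna stood at 174 CPM in late and 579 CPM in early cells (-1.73), the DNA ligase Lig1 at 63.1 and 268 CPM, Rrm2 at 30.7 and 138 CPM, and Tk1 at 48.8 and 167 CPM. The median early cell had an S phase sum of 5764 CPM, against 2006 CPM in the median late cell and 5985 CPM in the median S-high cell that was not mitotic-high. Of 26 measured histone genes 17 were lower in late cells and 1, H2bc4, was higher (median -1.39). H1f5 stood at 4.82 and 40.1 CPM (-2.82), and the cell cycle factors Mybl2 at 4.83 and 22.3 CPM and E2f1 at 5.65 and 32.0 CPM.

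Mitotic genes themselves divided between late and early cells. Over the 5 mitosis lists 5 of 121 genes were at least 2-fold higher in late cells and 23 were lower. Ccnb2 stood at 170 CPM in late and 34.8 CPM in early cells (log2 2.26), Cdkn3 at 81.2 and 20.4 CPM (1.94), the kinetochore protein Knstrn at 106 and 38.2 CPM (1.44) and Nek2 at 58.4 and 25.3 CPM (1.18). Lower in late cells were Esco2 (24.6 and 133 CPM, -2.38), Aurkb (13.0 and 63.1 CPM, -2.19), Prc1 (22.0 and 81.1 CPM, -1.83) and Nusap1 (20.8 and 51.8 CPM, -1.28). In the kinetochore list 10 of 31 were lower and Knstrn alone was higher (median -0.61), and in the spindle list 3 of 32 were lower (median -0.41). Several genes with high ratios over other cells stood within 2-fold between late and early cells: Cenpe at 62.4 and 62.3 CPM, Cdca8 at 155 and 136 CPM, Kif20a at 36.7 and 29.8 CPM, Hmmr at 49.5 and 32.3 CPM. DNA content was not measured. The scored markers Cdc20, Cenpa and Ccnb1 are part of the rule and cannot check the label of G2/M phase. Of the 122 genes of the mitosis lists, 71 were at least 2-fold higher and the other 51 within 2-fold. The early cells, in part chosen for it by the order, carried S phase transcripts at nearly the level of S-high cells. The name mitotic-high is therefore kept in place of a phase.

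Stem cell genes stood within 2-fold of the other cells. Of 22 measured stem genes (of 23), 0 passed 2-fold in either direction (median log2 -0.02). Lgr5, the R-spondin receptor of crypt stem cells, had 119 CPM (interval 116 to 122) in mitotic-high and 138 CPM (136 to 139) in other cells, a log2 ratio of -0.21, and was counted in 304 of 320 mitotic-high cells (95%) and in 1186 of 1279 others (92.7%). Olfm4, a secreted stem cell marker, stood at 1638 against 1637 CPM; its low values are absent from the table. Ascl2, a stem cell transcription factor, stood at 48.7 against 42.4 CPM (0.20), and the Eph receptor Ephb3 had the largest ratio of the list, at 17.2 against 12.4 CPM (0.45). Within the group Lgr5 stood at 94.5 CPM in the late and 169 CPM in the early cells. Of the epithelial identity genes 0 of 10 passed 2-fold (median -0.02), with Epcam at 1110 against 1067 CPM.

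Genes of differentiated cells were lower in sum. At least 2-fold lower were 7 of 17 measured enterocyte genes (of 25; median log2 -0.51), 7 of 8 Paneth genes (of 11; -1.53), 7 of 9 goblet genes (of 13; -2.54) and 7 of 7 enteroendocrine genes (of 18), with 0 higher in each. The fatty acid binding protein Fabp1 stood at 68.6 against 547 CPM (-2.98), the brush border enzyme Sis at 3.38 against 32.5 CPM (-2.94), and Alpi, the intestinal alkaline phosphatase, at 14.7 against 43.8 CPM (-1.52). The goblet mucin Muc2 stood at 0.705 against 6.03 CPM (-2.04) and was counted in 19 mitotic-high and 120 other cells, and the goblet peptide Tff3 at 230 against 795 CPM (-1.78). The granin Chga had a count in 5 mitotic-high cells (0.0860 CPM) and 53 others (17.6 CPM). The granin Chgb and the hormone Cck were listed at 0 in every mitotic-high cell, and were counted in 13 and 6 other cells; the low values of both are absent from the table, so these zeros do not show absence, and with zeros set to the smallest value the log2 ratios were -0.25 and -0.21. The Paneth lysozyme Lyz1 stood at 30.7 against 145 CPM and was counted in 8 and 77 cells. Low values are absent from the table for Lyz1 and for the Paneth genes Mmp7, Defa24, Defa30, Defa17 and Ang4. With zeros set in the same way their log2 ratios were -0.66, -0.71, -0.73, -0.51, -0.37 and -0.11, all within 2-fold. The goblet genes Fcgbp, Guca2a, Spink4 and Agr2 likewise stood at -0.66, -0.88, -0.33 and -0.22.

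These sums rest on few cells. In 44 of the 56 lower genes, 30 of the 1279 other cells held over 50% of the others' counts, and for Fabp1 those 30 held 80.7%. The typical cell differed little in these lists: the median summed enterocyte level was 829 CPM in mitotic-high and 817 CPM in other cells, the goblet level 48.3 and 48.0 CPM, the Paneth level 19.8 and 23.0 CPM. The median fetal and regenerative level was lower in mitotic-high cells, at 543 CPM (quartiles 338 and 799) against 686 CPM (455 and 1005). The highest cells differed, with enterocyte sums up to 8000 CPM among mitotic-high and 78690 CPM among other cells, and goblet sums up to 19931 and 107200 CPM. Without the 5% of cells highest in each of the enterocyte, Paneth, goblet, enteroendocrine and fetal lists, 4 genes in place of 56 were at least 2-fold lower and 100 were at least 2-fold higher, and Tff3 stood above 0 (log2 0.11). With the zeros of genes that lack low values set to their smallest value, 33 were lower. Fewer cells of a type and less RNA per cell cannot be told apart in the sums.

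Counted as cells, mitotic-high cells were a minority of each lineage extreme. Among the 80 cells highest in enterocyte genes 5 were mitotic-high (6.25%, exact 95% interval 2.06 to 14), among the 80 highest in Paneth genes 6 (7.5%, 2.80 to 15.6), in goblet genes 10 (12.5%, 6.16 to 21.8) and in enteroendocrine genes 11 (13.75%, 7.07 to 23.3). Among the 80 highest in fetal and regenerative genes 6 were mitotic-high (7.5%). Among the 80 highest in stem genes 7 were mitotic-high (8.75%, 3.59 to 17.2). The intervals for enterocyte, Paneth, fetal and stem extremes lie below 20%, and those for goblet and enteroendocrine extremes include it. The enteroendocrine sum was 0 in the median mitotic-high and the median other cell, with upper quartiles of 5.86 and 5.44 CPM. The 80 cells highest in it may therefore include cells with few such counts. A score in CPM is a share of a cell's counts, so cells given over to a few abundant transcripts have less left for other genes; the part of this in these shares was not tested.

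**Figure D5:**
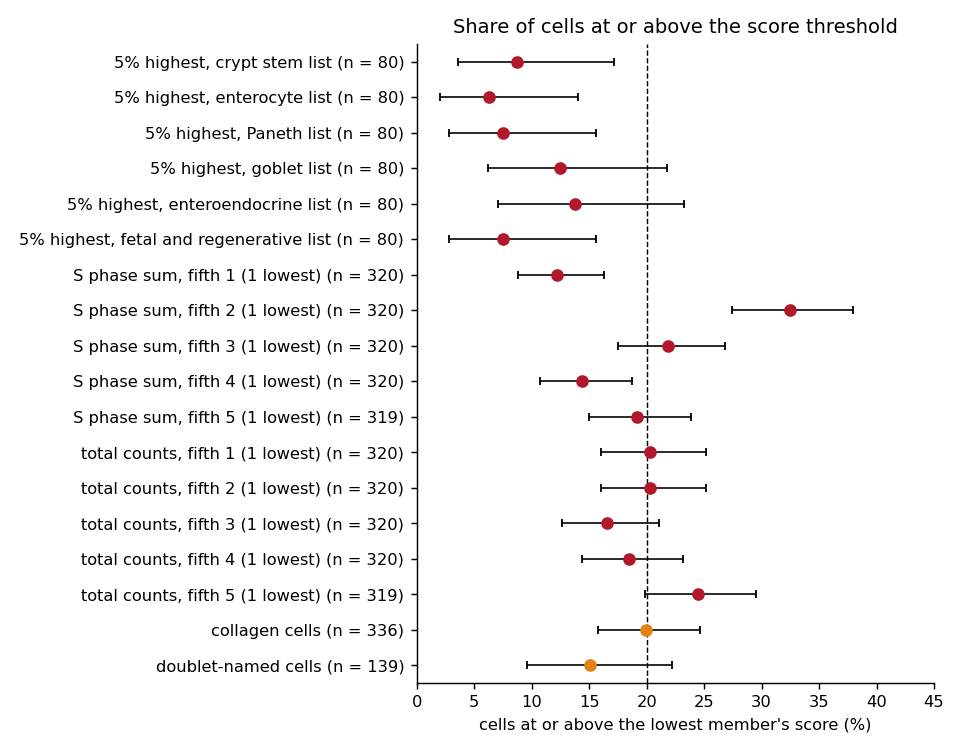
Share of cells at or above the lowest mitotic-high score (horizontal axis, %, exact 95% binomial intervals) among the 80 Matrigel cells highest in each lineage list, in 5 equal groups each by S phase level and by total counts, in collagen cells and in cells named as doublets; the dashed line marks 20%. The enterocyte, Paneth, stem and fetal extremes lie wholly below the line and the S phase group next to the lowest lies above it.

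Other lists covered further cell types and handling. Of the fetal and regenerative genes 1 of 11 measured (of 19), Ly6a, was lower (1.55 against 5.22 CPM, log2 -1.29) and 0 higher (median -0.48), with Clu at 13.6 against 15.7 CPM. The low values of Ly6a are absent from the table, and with zeros set to the smallest value its log2 ratio was -0.16. With the highest-scoring 30% of cells taken it was -0.26. Tuft cell genes had 0 of 11 measured (sums of 6.10 and 14.2 CPM), immune cell genes 0 of 12 (5.66 and 5.85 CPM) and endothelial genes 0 of 6 (2.17 and 2.64 CPM). The fibroblast list had Vim alone measured, and summed to 1.68 and 7.18 CPM. None of the 17 measured immediate-early genes (of 22; median -0.15), 13 mitochondrial genes (-0.01) or 14 measured apoptosis genes (of 16; -0.06) passed 2-fold.

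The same score was then read in cells the rule had not ranked. In the collagen culture 67 of 336 cells reached the lowest mitotic-high score (19.9%, exact 95% interval 15.8 to 24.6), and among cells named as doublets 21 of 139 (15.1%, 9.6 to 22.2). The collagen interval includes the 20% that the rule sets in Matrigel. That match depends on the cut, since the score was spread more widely in collagen. Its median was 122 CPM in collagen and 211 CPM in Matrigel cells, and its 90th percentile 1272 and 962 CPM. The collagen cells above the threshold scored higher than the mitotic-high Matrigel cells (median 1281 against 964 CPM) and had a lower S phase sum (1337 against 2448 CPM) and a higher late share (32.3% against 24.4%), with a median of 142073 counts per cell. At the Matrigel S-high threshold stood 11 of 336 collagen cells (3.27%, 1.65 to 5.78). As with the Matrigel members, the 67 cells were chosen by the score.

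Set against the other 269 collagen cells, 427 of 8399 genes were at least 2-fold higher (5.08%) and 149 lower (1.77%). The cells above the threshold had more counts (median 142073 against 123556) and detected genes (8748 against 7796) than those below. The part of depth in these counts was not tested. Of the 100 genes higher in mitotic-high Matrigel cells, 96 were tested in collagen and 95 were higher there, which is 95% of the Matrigel list and 22.2% of the collagen list, and 0 were lower. Both sets were chosen with the same 9 genes. Of the mitosis lists 99 of 125 genes were higher (median log2 2.44), and of the S phase list 26 of 47 (median 1.05), where the Matrigel cells had 0 of 49. Hmmr stood at 122 against 8.54 CPM in collagen, Cdk1 at 87.8 against 8.56 CPM, Cdca8 at 128 against 11.7 CPM, Aurka at 34.5 against 1.36 CPM, and Ccnb2 at 219 against 52.0 CPM. The difference between cultures in these ratios was not tested, since each culture was 1 suspension.

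Stem, fetal and regenerative genes were also compared between the high-scoring cells of the 2 cultures. Olfm4 stood at 1638 CPM in mitotic-high Matrigel cells and at 16.9 CPM in high-scoring collagen cells, Lgr5 at 119 and 36.5 CPM, and S100a6 at 146 and 5341 CPM. The median summed fetal and regenerative level was 543 CPM in the Matrigel and 5480 CPM in the collagen cells. Within collagen, Olfm4 stood at 16.9 CPM above and 35.3 CPM below the threshold and Lgr5 at 36.5 and 32 CPM. The low values of Olfm4 are absent from the table, so its collagen levels may be too low. Its differences between cultures and within collagen are therefore uncertain in size, and zeros were not set to the smallest value for them. Of the 18 stem genes measured there, 1 was at least 2-fold higher and 1 lower in the cells above the threshold. Of 13 measured fetal and regenerative genes there, 5 were lower and 0 higher (median log2 -0.74), and the median sum was 5480 CPM above and 7502 CPM below the threshold.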

How the data were processed

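Single cells of mouse intestinal organoids were measured with BD Rhapsody TAS-Seq in 1 pooled cDNA library and 1 hashtag library. The cDNA table holds expected counts per gene and cell deposited by the authors, of which 75.6% of values above 0 are whole numbers (tolerance 1e-06), and the hashtag table holds tag counts deposited by the authors. The tools were STARsolo 2.7.10a, cutadapt 4.1 and R 4.2.1, with the GRCm39 genome, per the submitters' processing notes; their roles, the gene annotation and the handling of molecular identifiers are not given in the sources used here. For 49 leading genes the table lists no low values. Cells were assigned by their deposited names; 9 hashtag columns were not used. All 2090 barcodes were in the hashtag table, where 18 mitotic-high and 45 other cells had an own-tag share under 95%. Cells named as doublets were left out; doublets within a culture were not sought.

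Counts were summed over cells and scaled to CPM (5.81e+07 counts in mitotic-high and 2.27e+08 in other cells). Ratios are log2 with 1 CPM added. A gene was tested with 10 CPM and 100 counts in the higher group and called at 2-fold; list genes were measured from 5 CPM in either group. Genes named come from the 15 with the highest and the 15 with the lowest ratio from 20 CPM, up to 8 per list by size of ratio, and fixed markers. Mitochondrial, ribosomal protein, predicted, Rik, clone and pseudogene names were left out of the ranking by ratio, and not every ranked gene is named. Others are named to show a list's members near 0 or a contrast, and were chosen after their values were seen. Members and lists were chosen with earlier results of these data known; 9 list symbols had no entry. Cells were thinned to the 10th percentile of counts (seed 1). Intervals are exact 95% Poisson or binomial (Clopper-Pearson). The ratio script was tested on simulated data. Python 3.11.15, numpy 2.4.6, pandas 2.3.3, scipy 1.17.1 and matplotlib 3.10.9 were used. Alternatives were other cuts, score weights, filters, pseudocounts, thinning, and cells left out by depth, mitochondrial share, hashtag share or lineage.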

Additional observations from a re-analysis of the deposited data

How the results depend on the processing

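The main counts were 100 higher and 56 lower genes, a mitosis-list median of 1.20, 19.1% of S-high cells mitotic-high and 19.9% of collagen cells above the threshold. Taking the highest 10% of cells gave a median of 1.33, 9.06% of S-high cells and 14% of collagen cells; the highest 30% gave 35% and 27.1%. Without Cenpa in the score, 26.9% of S-high cells were included. Adding 5 CPM gave a median of 0.98. Requiring 50 CPM left 30 higher and 18 lower genes, and no filter gave 134 lower. Setting the zeros of genes without low values to their smallest value gave 33 lower genes. Leaving out lineage-high cells, an alternative chosen after seeing the data, left 287 and 1045 cells and 4 lower genes; Apoa1 (0.61), Apoa4 (0.10), Guca2b (0.42), Tff3 (0.11), Vim (0.11) and Zg16 (0.32) then stood above 0. Weighting the 9 genes equally kept 267 of the 320 cells, leaving out Cenpa 284, and thinning 274 of 288. Of 102 named genes past 2-fold, 69 kept their call without lineage-high cells, 83 with zeros set and 90 or more under each of the other alternatives that recompute the ratios; the changes of expression filter leave each ratio as it is and were read as counts only. No paired analysis was possible because there is 1 cDNA library. Depth limits single-cell values of low genes, which is why sums and thinned shares are given.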

Other observations

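Of the 100 higher genes 75 were in one of the lists; the genes outside them that are named here were chosen after their values were seen. Several are known from replication and repair: Pclaf, the PCNA-associated factor, stood at 318 CPM in mitotic-high and 147 CPM in other cells (log2 1.11), the DNA glycosylase Neil3 at 14.9 and 3.96 CPM (1.68), and Dbf4, the activator of the Cdc7 kinase, at 58.5 and 27.4 CPM (1.07). Others are linked to the cytoskeleton and centrosome, among them the formin Diaph3 (36.0 and 13.3 CPM, 1.37), Cntrl, a centrosomal protein (34.0 and 12 CPM, 1.43), and Shcbp1, a protein of the central spindle (20.2 and 4.40 CPM, 1.97). Cip2a, an inhibitor of protein phosphatase 2A, stood at 34.6 and 10.1 CPM (1.68), and the noncoding RNA Lockd, which lies next to Cdkn1b, at 39.8 and 11.5 CPM (1.71).

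Among lower genes outside the lists, St3gal4, a sialyltransferase, stood at 16.8 and 76.3 CPM (-2.12), the alcohol dehydrogenase Adh1 at 135 and 305 CPM (-1.16), and Mxd4, a MAX dimerization protein that opposes Myc, at 7.41 and 21.5 CPM (-1.42). The alpha-defensin Defa39 was higher in the mitotic-high cells (38.5 and 11 CPM) but was counted in 2 of them.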
